A study of Danio rerio with 18 samples.

Results

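The genes ccnd1, myca and mdm4 were followed in whole zebrafish embryos whose microRNA mir-34 had been blocked. They were chosen because all 3 have been reported as targets of miR-34, mostly in mammalian cells. Members were the probe sets that the array's annotation gives the symbol ccnd1, myca or mdm4: 3 of 8793 named genes, and 4 of 15502 probe sets that are not Affymetrix controls. The gene ccnd1 (Entrez 30222) has the probe sets Dr.24753.1.S1_at and Dr.24753.1.S2_at. The gene myca (Entrez 30686) has Dr.1.1.S1_at, and mdm4 (Entrez 334932) has Dr.20062.1.S1_at. All 4 were measured on every array, no filter on low values was applied, and all 4 were tested.

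Wild-type embryos were injected at the stage of 1 to 2 cells with an anti-mir-34 LNA or with a mock LNA and kept at 30 °C until 1, 7 or 24 hours post fertilization (hpf). An LNA, or locked nucleic acid, is a modified oligonucleotide that pairs tightly with a small RNA and keeps it from its targets. The 6 groups, each of 3 arrays called biological replicates in the labels, were anti-mir-34 LNA and mock LNA embryos of 1 hpf, anti-mir-34 LNA and mock LNA embryos of 7 hpf, and anti-mir-34 LNA and mock LNA embryos of 24 hpf. Both kinds of embryo were injected, and uninjected embryos were not analysed here; the chorion was removed by hand at 7 and 24 hpf only. Neither the number of embryos per sample nor their clutches is given in the sources used here, so p-values measure the spread between these samples, and 3 arrays per group limit the precision. The mir-34 RNA itself was not analysed here, so how far it was blocked is not known from these values.

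A microRNA binds partly matching sites, mostly in the 3' untranslated region of a messenger RNA, and lowers its stability and translation. The p53 protein raises miR-34 genes in mammals, and several of the RNAs that miR-34 lowers there drive the cell cycle or restrain p53. The products of ccnd1, myca and mdm4 stand at 3 points of that circuit. Cyclin D1 activates Cdk4 and Cdk6, which phosphorylate the retinoblastoma protein and let a cell enter S phase. Myca, a zebrafish form of the transcription factor c-Myc, raises growth and ribosome genes together with its partner Max. Mdm4 binds p53 and blocks its activity, and works with the ubiquitin ligase Mdm2.

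Levels are the deposited log2 signals, and the median array value lay between 3.67 and 3.68 on all 18 arrays. Arrays with equally many missing values had the same median, so the arrays may have been set to a shared distribution. How they were scaled is not described in the sources used here. Differences are therefore relative to the other RNAs of an embryo, and fewer cells with a transcript cannot be told apart from less of it per cell. The files used here hold no detection calls, so a low level is not told apart from background. Where an age step starts or ends below a mean of 4 (a signal of 16), its value with 16 added to every signal before the logarithm is given too, for the probe set that stands for the gene, and so it is for ccnd1 and myca within an age where they are that low. Stage markers followed the labelled ages. The median of 9 maternal and oocyte genes lay between 8.14 and 9.03 on the arrays of 1 hpf, 6.47 and 7.16 at 7 hpf, and 0.08 and 2.6 at 24 hpf. The median of 9 blastula and gastrula genes lay between 0.71 and 2.08, 5.07 and 7.19, and 1.76 and 2.58 at the same ages. At 24 hpf the 3' probe set of GAPDH exceeded the 5' one by 0.99 to 1.77, while this sign of RNA integrity ranged from -0.37 to 0.19 at 1 hpf and from -1.40 to 0.78 at 7 hpf. For the actin control acta1 it was less even. It was -1.77 to 0.76 with anti-mir-34 LNA and -0.32 to 5.30 with mock LNA at 1 hpf. At 7 hpf these ranges were 0.18 to 3.25 and -0.86 to 0.76, and at 24 hpf 3.84 to 4.15 and 4.09 to 4.43. The value of 5.30 belongs to mock replicate 2 of 1 hpf, whose GAPDH value of -0.37 was the lowest at that age. The signal levels of these control probe sets are not given here. The part of RNA integrity in the differences was not tested.

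Cyclin D1 RNA came up between 1 and 7 hpf and was still high at 24 hpf. In anti-mir-34 LNA embryos ccnd1 averaged 2.46 ± 0.20, 9.63 ± 0.31 and 9.20 ± 0.11 at 1, 7 and 24 hpf (SD, n = 3 each). In mock LNA embryos it averaged 1.86 ± 1.65, 8.90 ± 0.84 and 9.11 ± 0.12. No array of 1 hpf came near any array of the later ages, but the share of all probe sets so separated is not given here. Of all probe sets, 39.4% with anti-mir-34 LNA and 24.0% with mock LNA passed from 1 to 7 hpf. Between 1 and 7 hpf the log2 rise was 7.16 ± 0.52 (SE) with anti-mir-34 LNA (adjusted p = 2.35e-09) and 7.05 ± 0.52 with mock LNA (adjusted p = 4.77e-09). The second probe set rose by 7.44 and 6.70. With 16 added to the signals, the rises of the first were 5.23 and 4.58, so the size is not exact, while the call stood. From 7 to 24 hpf ccnd1 differed by -0.43 ± 0.52 with anti-mir-34 LNA (adjusted p = 0.568) and by 0.21 ± 0.52 with mock LNA (adjusted p = 0.782).

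**Figure D1:**
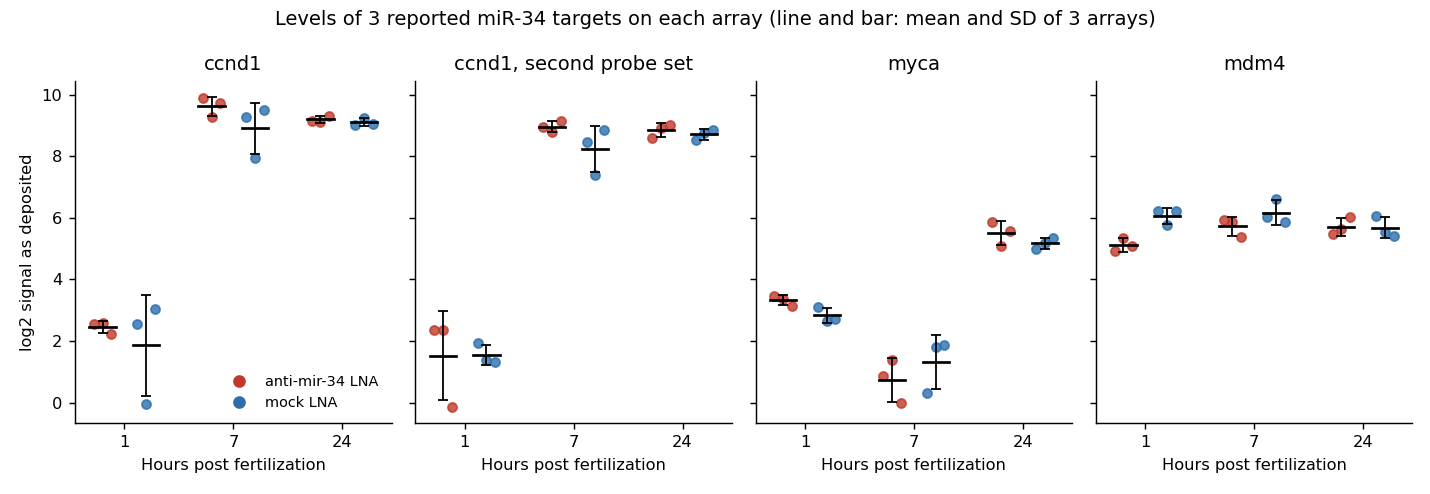
Deposited log2 signal (y axis) of the 4 probe sets on every array, against age in hours post fertilization (x axis, ages evenly spaced), with anti-mir-34 LNA embryos to the left of mock LNA embryos at each age; lines and bars are the mean and SD of 3 arrays. The ccnd1 probe sets step up between 1 and 7 hpf, myca dips at 7 hpf and is highest at 24 hpf, and mdm4 stays between 4.91 and 6.62.

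Blocking mir-34 did not raise ccnd1 past the threshold at any age. At 1 hpf the arrays read 2.57, 2.58 and 2.23 with anti-mir-34 LNA, against 2.56, -0.03 and 3.04 with mock LNA. The groups overlapped, and the mock spread came from 1 array. The difference was 0.61 ± 0.52, with a 95% interval of -0.48 to 1.69 and an adjusted p of 0.877. It was 0.05 with 16 added, and the second probe set, at 2.35, 2.36 and -0.15 with anti-mir-34 LNA against 1.93, 1.39 and 1.31 with mock LNA, gave -0.02. So the sign at 1 hpf, where both probe sets read lowest, depends on the probe set, and in the first it also turned without mock replicate 2 (-0.34).

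At 7 hpf ccnd1 stood at 9.89, 9.28 and 9.72 in anti-mir-34 LNA embryos, against 9.27, 7.94 and 9.50 in mock LNA embryos. Mock replicate 2 was the lowest of the 6, and the other 5 overlapped. Replicate 2 was also the lowest of the anti-mir-34 LNA arrays. At each replicate number the anti-mir-34 LNA array read higher than the mock one. The difference was 0.72 ± 0.52 (interval -0.36 to 1.80, or 0.78 to 3.49-fold, adjusted p = 0.585). With 16 added to the signals it was 0.70 (adjusted p = 0.238). The second probe set read 8.96, 8.79 and 9.14 against 8.47, 7.40 and 8.86, and also differed by 0.72 (adjusted p = 0.548). Mock replicate 2 was again lowest there, and so was replicate 2 among the anti-mir-34 LNA arrays. Leaving out mock replicate 2 alone gave a ccnd1 difference of 0.24 in the first probe set.

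The level of gastrula genes moved with ccnd1 across the 7 hpf arrays. The median of the 9 blastula and gastrula genes was 6.91, 6.57 and 7.19 with anti-mir-34 LNA, against 6.11, 5.07 and 6.68 with mock LNA. Mock replicate 2 was lowest in both, and replicate 2 was lowest in both among the anti-mir-34 LNA arrays. All 9 genes differed upward in anti-mir-34 LNA embryos (by 0.51 to 1.16), none past the threshold. The 9 maternal genes differed the other way, with a median of -0.76 and none past it. The part of stage in the 7 hpf differences was not tested.

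**Figure D2:**
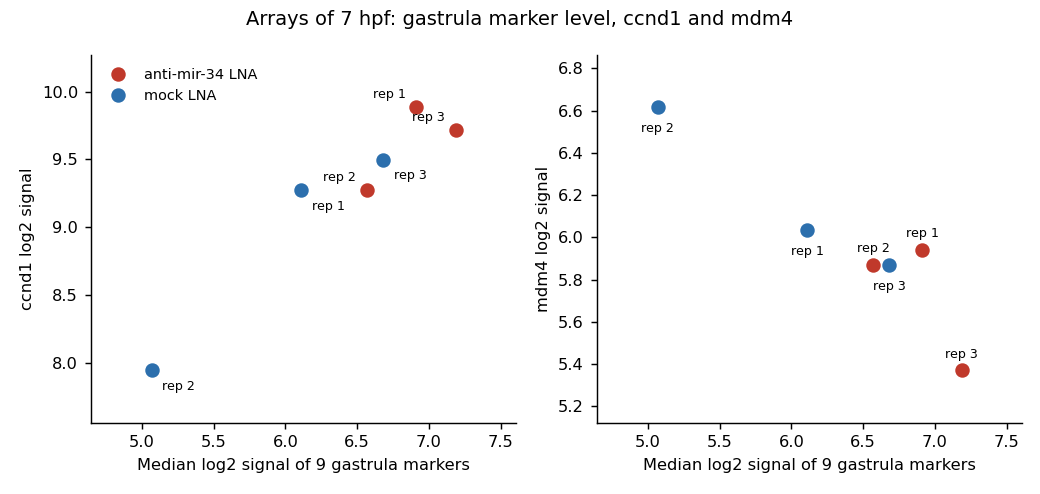
Arrays of 7 hpf only: the median log2 signal of 9 blastula and gastrula marker genes (x axis) against the log2 signal of ccnd1 (left) and mdm4 (right), 1 point per array, labelled by replicate. Mock replicate 2 has the lowest marker median (5.07), the lowest ccnd1 value (7.94) and the highest mdm4 value (6.62).

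At 24 hpf the ccnd1 values were 9.16, 9.12 and 9.32 with anti-mir-34 LNA, against 9.03, 9.26 and 9.05 with mock LNA. These are the tightest groups of the gene and they overlapped. The difference was 0.08 ± 0.52 (interval -1.0 to 1.17, adjusted p = 0.999). The fit shares its error over all ages, so this interval is wider than the 24 hpf arrays alone would give. The second probe set read 8.59, 8.93 and 9.02, against 8.52, 8.76 and 8.85, and its groups overlapped too, with a difference of 0.14. In descending order the 6 ccnd1 means were anti-mir-34 LNA at 7 hpf, then at 24 hpf, mock LNA at 24 hpf, mock LNA at 7 hpf, anti-mir-34 LNA at 1 hpf and mock LNA at 1 hpf. Neighbours in that order overlapped, except at the step down to 1 hpf.

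The RNA of myca took a different course: low at 1 hpf, lower at 7 hpf and highest at 24 hpf. In anti-mir-34 LNA embryos it averaged 3.33 ± 0.17, 0.74 ± 0.70 and 5.51 ± 0.39 at 1, 7 and 24 hpf. In mock LNA embryos it averaged 2.84 ± 0.25, 1.33 ± 0.89 and 5.17 ± 0.17. The ages did not overlap in either injection, but the share of all probe sets without such overlap is not given here. Of all probe sets, 39.4% and 35.9% passed the 2 steps with anti-mir-34 LNA, and 24.0% and 43.0% with mock LNA. With anti-mir-34 LNA myca fell by 2.6 ± 0.47 from 1 to 7 hpf (adjusted p = 0.000172) and rose by 4.77 ± 0.47 from 7 to 24 hpf (adjusted p = 1.43e-07). With mock LNA it fell by 1.51 ± 0.47 (adjusted p = 0.0228) and rose by 3.85 ± 0.47 (adjusted p = 1.80e-06). From 1 to 24 hpf the net rise was 2.18 with anti-mir-34 LNA and 2.34 with mock LNA (1.25 and 1.17 with 16 added).

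The rise of myca to 24 hpf stood with 16 added, at 1.80 with anti-mir-34 LNA and 1.47 with mock LNA, and so did the fall by 0.55 to 7 hpf with anti-mir-34 LNA. The mock fall did not: it was -0.31 with 16 added (adjusted p = 0.144) and -1.51 in a fit of the mock groups of 1 and 7 hpf alone (adjusted p = 0.0967). Leaving out mock replicate 1 of 1 hpf gave -1.37 (adjusted p = 0.0830), and leaving out mock replicate 1 of 7 hpf gave -1.0 (adjusted p = 0.150). The falls of the 2 injections differed by -1.08 (adjusted p = 0.542).

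No effect of the anti-mir-34 LNA on myca passed the threshold. At 1 hpf its arrays read 3.47, 3.38 and 3.15, against 3.12, 2.66 and 2.73 in mock LNA embryos. All 3 lay above all 3 mock arrays, by a margin of 0.03 between the closest, as did 6.43% of all probe sets at this age; the exact permutation p was 0.1, the smallest that 3 against 3 arrays can give. The difference was 0.50 ± 0.47 (interval -0.48 to 1.47, or 0.72 to 2.78-fold; adjusted p = 0.906) and 0.17 with 16 added.

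At 7 hpf myca read 0.86, 1.37 and -0.02 with anti-mir-34 LNA, against 0.30, 1.80 and 1.87 with mock LNA. The groups overlapped at levels near the bottom of the scale, and the difference was -0.59 ± 0.47 (interval -1.57 to 0.39, adjusted p = 0.625; -0.08 with 16 added). At 24 hpf the values were 5.86, 5.10 and 5.58 against 5.0, 5.18 and 5.34. The highest arrays were of anti-mir-34 LNA embryos, the lowest was a mock one, and the difference was 0.34 ± 0.47 (interval -0.64 to 1.32, adjusted p = 0.999). In descending order the means ran from 24 through 1 to 7 hpf. At 24 and 1 hpf the anti-mir-34 LNA mean was above the mock one and at 7 hpf below it. The 2 injections of an age did not differ past the threshold.

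Other Myc genes on the array kept their own timing, and the family did not move as 1 unit. The levels of mycla and myclb, relatives of mammalian MYCL, were highest at 1 hpf and fell with age. In mock LNA embryos mycla fell by 1.62 to 7 hpf and by 1.03 more to 24 hpf (adjusted p = 3.45e-05 and 0.00153). Over the same steps myclb fell by 0.78 and 0.69 (adjusted p = 0.0237 and 0.0259). Those 2 falls of myclb were small: leaving out mock replicate 2 or 3 of 7 hpf or 2 of 1 hpf put the first between -0.73 and -0.55 (adjusted p up to 0.137). Leaving out mock replicate 1 of 7 hpf or 2 or 3 of 24 hpf put the second between -0.63 and -0.59 (adjusted p up to 0.104). Neither was called without the intensity trend (adjusted p = 0.0543 and 0.0545), nor was the first in the 2 groups alone (0.0666). The neural and progenitor gene mycn rose by 3.14 (1.80 with 16 added) and then by 1.75 (adjusted p = 8.62e-06 and 0.00164), while its second probe set differed by 6.39 and by 1.21 (adjusted p of the second step = 0.288). The zebrafish gene mych rose by 2.36 to 7 hpf and fell by 1.35 to 24 hpf. The other c-Myc form, mycb, was also lowest at 7 hpf but, unlike myca, averaged higher at 1 than at 24 hpf. Between those ages it differed by -0.64 with mock LNA (adjusted p = 0.119) and by -0.51 with anti-mir-34 LNA (adjusted p = 0.213). In mock LNA embryos mycb fell by 1.75 to 7 hpf (adjusted p = 0.000702) and rose by 1.11 to 24 hpf (adjusted p = 0.0126). With 16 added these steps were -1.02 and 0.62. The rise was 0.93 without mock replicate 1 of 24 hpf (adjusted p = 0.0595) and 0.85 without replicate 3 (adjusted p = 0.0775), and it was not called in the 2 groups alone (adjusted p = 0.0686).

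**Figure D3:**
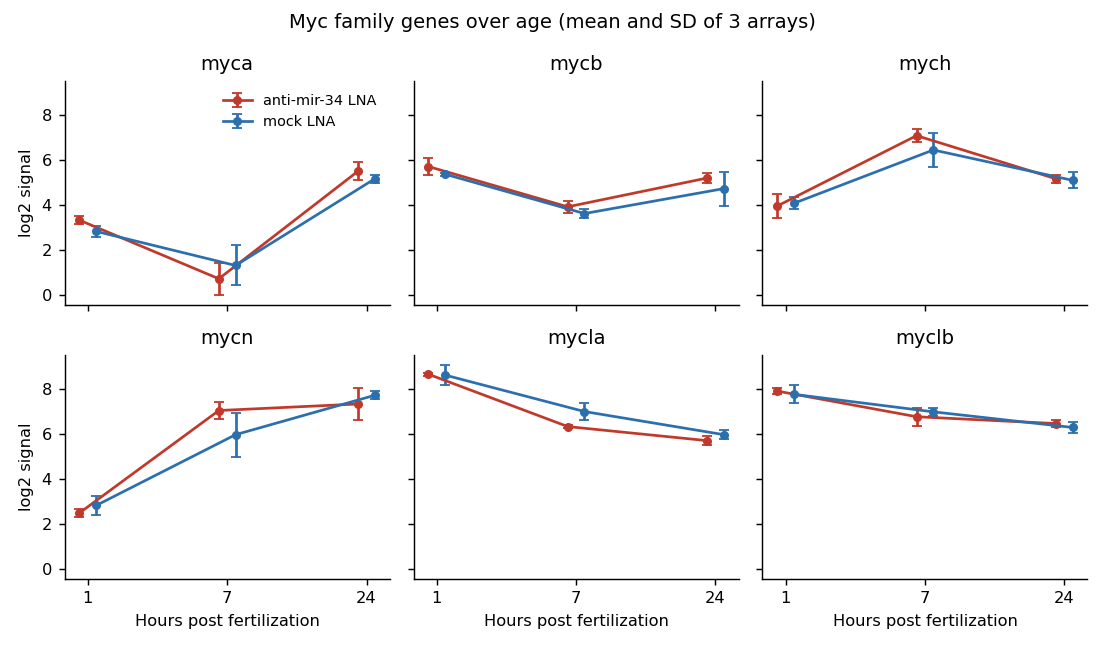
Mean log2 signal (y axis) of 6 Myc family genes at 1, 7 and 24 hpf (x axis, evenly spaced) in anti-mir-34 LNA and mock LNA embryos; bars are the SD of 3 arrays. The genes myca and mycb are lowest at 7 hpf, mych is highest there, mycn rises and mycla and myclb fall, in both injections; levels are not comparable between genes.

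Within an age no Myc relative passed the threshold for the LNA. The smallest adjusted p was that of mycla at 7 hpf, which read 6.39, 6.24 and 6.37 with anti-mir-34 LNA, against 7.17, 7.27 and 6.56 with mock LNA. The arrays did not overlap, as for 7.76% of all probe sets in this direction, and the difference was -0.67 ± 0.24 (adjusted p = 0.267). For mycn at 7 hpf the arrays read 6.98, 6.70 and 7.45, against 6.27, 4.88 and 6.77. Mock replicate 2 was again the lowest, and the difference of 1.07 ± 0.41 (adjusted p = 0.303) became 0.53 without it. The same array was the lowest for mych, at 5.58. Among the anti-mir-34 LNA arrays replicate 2 was the lowest for both genes.

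The RNA of mdm4 changed little with age. In anti-mir-34 LNA embryos it averaged 5.12 ± 0.23, 5.73 ± 0.31 and 5.71 ± 0.29 at 1, 7 and 24 hpf. In mock LNA embryos it averaged 6.07 ± 0.26, 6.17 ± 0.39 and 5.67 ± 0.34. No age step passed the threshold. From 1 to 7 hpf the difference was 0.61 ± 0.28 with anti-mir-34 LNA (adjusted p = 0.0906) and 0.10 ± 0.28 with mock LNA (adjusted p = 0.833). From 7 to 24 hpf it was -0.01 ± 0.28 (adjusted p = 0.977) and -0.50 ± 0.28 (adjusted p = 0.159). From 1 to 24 hpf it was 0.59 (adjusted p = 0.0762) and -0.40 (adjusted p = 0.233), in opposite directions. The percentages of all probe sets that passed these steps were 39.4% and 24.0% from 1 to 7 hpf, and 35.9% and 43.0% from 7 to 24 hpf, with anti-mir-34 LNA and mock LNA in that order. Of the 4 probe sets studied, both of ccnd1 and that of myca passed the first step, and that of myca passed the second, in each injection. From 1 to 24 hpf, where 57.0% and 56.3% of probe sets passed, the same 3 did.

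At 1 hpf mdm4 was lower, not higher, in anti-mir-34 LNA embryos. It read 4.91, 5.36 and 5.09 there, against 6.23, 5.77 and 6.22 in mock LNA embryos. The groups did not overlap, as for 6.30% of all probe sets in this direction, and the exact permutation p was 0.1. The difference was -0.95 ± 0.28 (interval -1.54 to -0.37, or 0.34 to 0.77-fold). Its unadjusted p of 0.00271 ranked 376 among 15502 probe sets, and its adjusted p of 0.112 did not pass. Leaving out any 1 array kept it between -1.11 and -0.85, and the adjusted p lay between 0.0747 and 0.357 over all alternatives tried.

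At 7 hpf mdm4 stood at 5.94, 5.87 and 5.37 with anti-mir-34 LNA, against 6.04, 6.62 and 5.87 with mock LNA. The groups overlapped narrowly, and mock replicate 2, lowest in gastrula genes, was the highest array here. The difference was -0.45 ± 0.28 (interval -1.03 to 0.14, adjusted p = 0.525), and -0.23 without that array. At 24 hpf the values were 5.47, 5.65 and 6.03 against 6.06, 5.55 and 5.41. They overlapped throughout, with a difference of 0.04 ± 0.28 (interval -0.54 to 0.62, adjusted p = 0.999). In descending order the means were mock LNA at 7 hpf, mock LNA at 1 hpf, anti-mir-34 LNA at 7 hpf and at 24 hpf, mock LNA at 24 hpf and anti-mir-34 LNA at 1 hpf. Neighbours in that order overlapped, except the last pair.

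The partner gene mdm2, whose ubiquitin ligase marks p53 for degradation, differed in the opposite direction from mdm4 at 1 hpf. Its arrays read 7.07, 6.70 and 7.01 with anti-mir-34 LNA, against 6.29, 5.81 and 5.86 with mock LNA. All 3 lay above the mock arrays, as did 6.43% of all probe sets at this age. The difference was 0.94 ± 0.30 (interval 0.31 to 1.56), with an unadjusted p of 0.00514 and an adjusted p of 0.162. It was 0.49 at 7 hpf and -0.27 at 24 hpf (adjusted p = 0.514 and 0.999). With age mdm2 fell from 7 to 24 hpf, by 1.89 with anti-mir-34 LNA and by 1.13 with mock LNA (adjusted p = 4.91e-05 and 0.00425), a step at which mdm4 did not pass.

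**Figure D4:**
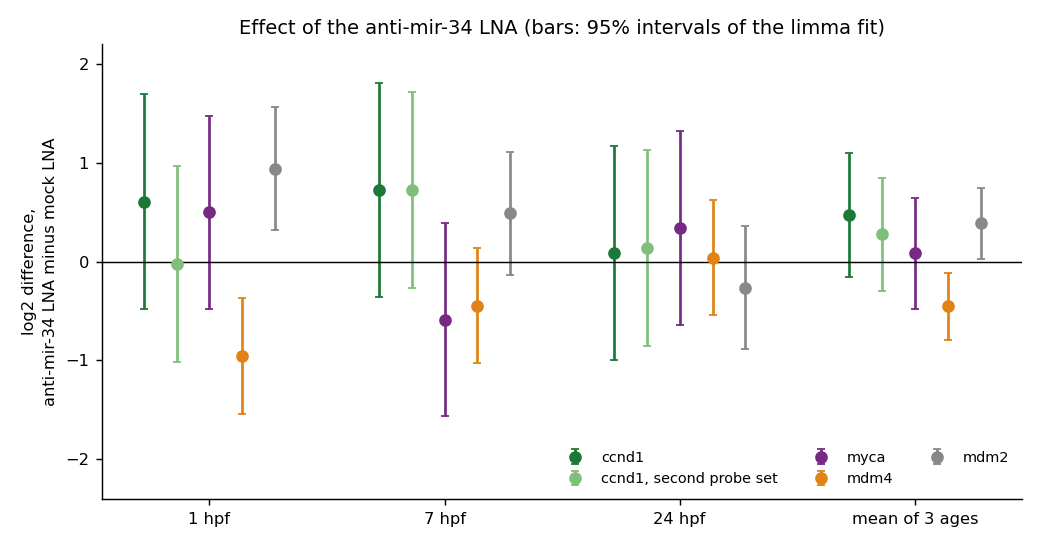
Log2 difference between anti-mir-34 LNA and mock LNA embryos (y axis; above 0 is higher with anti-mir-34 LNA) at each age and as the mean of the 3 ages (x axis), for the 4 probe sets and mdm2; bars are 95% intervals. Intervals of ccnd1 and myca cross 0 throughout, and those of mdm4 lie below 0 at 1 hpf (-0.95) and in the mean (-0.45). Those of mdm2 lie above 0 at 1 hpf (0.94) and in the mean (0.39). None passed after adjustment. The mean uses the same arrays as the single ages.

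Put together, 0 of the 4 probe sets passed limma's test of the LNA at 1 hpf, where 1.23% of all probe sets did, or at 7 hpf (0.0129%) or 24 hpf (0.0129%). At an unadjusted p under 0.05 the counts were 1 of 4 at 1 hpf (mdm4, lower) and 0 of 4 at the later ages, against 9.83%, 12.4% and 4.43% of all probe sets. Averaged over the 3 ages, the difference was 0.47 ± 0.30 for ccnd1 (interval -0.15 to 1.10, adjusted p = 0.709), 0.08 ± 0.27 for myca (-0.48 to 0.65, adjusted p = 0.957) and -0.45 ± 0.16 for mdm4 (-0.79 to -0.12, adjusted p = 0.469). In that mean 0.00645% of probe sets passed after adjustment and 8.15% at an unadjusted p under 0.05, where mdm4 was among the second (limma's unadjusted p = 0.0107). The F-test for an effect at any age gave adjusted p = 0.768 for ccnd1, 0.774 for myca and 0.272 for mdm4, where 0.284% of probe sets passed.

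Whether the LNA effect differed between ages was tested directly. The mdm4 effect was 1.00 ± 0.40 higher at 24 than at 1 hpf, with an unadjusted p of 0.0204 and an adjusted p of 0.539. For ccnd1 this difference was -0.52 (adjusted p = 0.949) and for myca -0.16 (adjusted p = 0.991). None of the 4 probe sets passed for any pair of ages, where 0.271% of probe sets did between 7 and 1 hpf and 0% did in both other pairs. At an unadjusted p under 0.05 mdm4 alone passed, between 24 and 1 hpf, where 7.41% of probe sets did. The shares were 11.8% between 7 and 1 hpf and 8.60% between 24 and 7 hpf. The mdm4 values at 1 hpf, in the mean of the ages and in this difference share the arrays of 1 hpf, so they are not separate results. The intervals are wide. At 7 hpf a ccnd1 rise of up to 3.49-fold is within the interval. At 24 hpf rises of up to 2.25-fold for ccnd1, 2.49-fold for myca and 1.54-fold for mdm4 are within theirs. The fit shares its error over all ages, and ccnd1 spread most in mock LNA embryos of 1 hpf (SD 1.65). Its 24 hpf limit is therefore wider than the 24 hpf arrays alone (SD 0.11 and 0.12) would give.

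Genes with the most similar course were named by the root mean square difference of the centred log2 profiles over the 18 arrays, which share their age steps and carry no test. For ccnd1 these were the keratin gene krt17 (0.62), the glycosyltransferase gene b3gnt5a (0.71) and the nucleosome-binding gene hmgn6 (0.75). The second ccnd1 probe set lay at 0.72, among them. For myca they were the homeobox genes pbx1a (0.51), hoxd10a (0.56) and hoxb2a (0.59). The nearest to mdm4 were spag7 (0.24), the dynein light chain gene dynlt3 (0.28) and arpc4 (0.32), a subunit of the actin-nucleating Arp2/3 complex. A flat course gives small values, so the distances are not comparable between the 3 genes.

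Among 39 other genes reported as miR-34 targets and named on the array, of 59 listed, none passed for the LNA at any age. At 1 hpf 17 were higher and 22 lower in anti-mir-34 LNA embryos, with a median of -0.02, beside 0.04 over all named genes, of which 1.58% passed. At 7 hpf 26 were higher and 13 lower, with a median of 0.37 beside -0.02 over all named genes, of which 0.0227% passed. That median was 0.12 with 16 added and 0.15 without mock replicate 2 of 7 hpf. At 24 hpf 21 were higher and 18 lower, with a median of 0.01 beside 0.02, and 0% of named genes passed.

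Closest to the threshold at 1 hpf was snai1a, a repressor of epithelial genes, at 5.75 ± 0.65 with anti-mir-34 LNA against 6.76 ± 0.13 with mock LNA (difference -1.01, adjusted p = 0.0606). It passed in some alternatives, among them with 16 added (-0.82, adjusted p = 0.0476). It also passed without anti-mir-34 replicate 2 or 3 of 1 hpf (-1.10 and -1.28, adjusted p = 0.0448 and 0.0199). In 7 of 12 alternatives snai1a did not pass, and its adjusted p reached 0.465. At 7 hpf the closest was map2k1, a kinase of the MAP kinase cascade, at 3.20 ± 0.06 against 4.39 ± 0.46 (-1.19, adjusted p = 0.135). Leaving out single arrays put its adjusted p between 0.0484 (-1.32, without mock replicate 3 of 7 hpf) and 0.784. Without that mock array 403 probe sets passed at 7 hpf, against 2 in the full fit. At 24 hpf the closest was acsl4a, a fatty acid ligase gene, at 4.70 ± 0.41 against 4.0 ± 0.21 (0.70, adjusted p = 0.999). The genes snai1a and map2k1 differed downward and acsl4a upward. At an unadjusted p under 0.05 (limma), 0 of the 39 were higher and 3 lower at 1 hpf. At 7 hpf 7 were higher and 4 lower, and at 24 hpf 0 passed in either direction. Of all probe sets, counted in either direction, 9.83%, 12.4% and 4.43% passed at these ages. The 39 targets are counted once per gene, and the share of named genes alone at this cutoff is not given here.

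**Figure D5:**
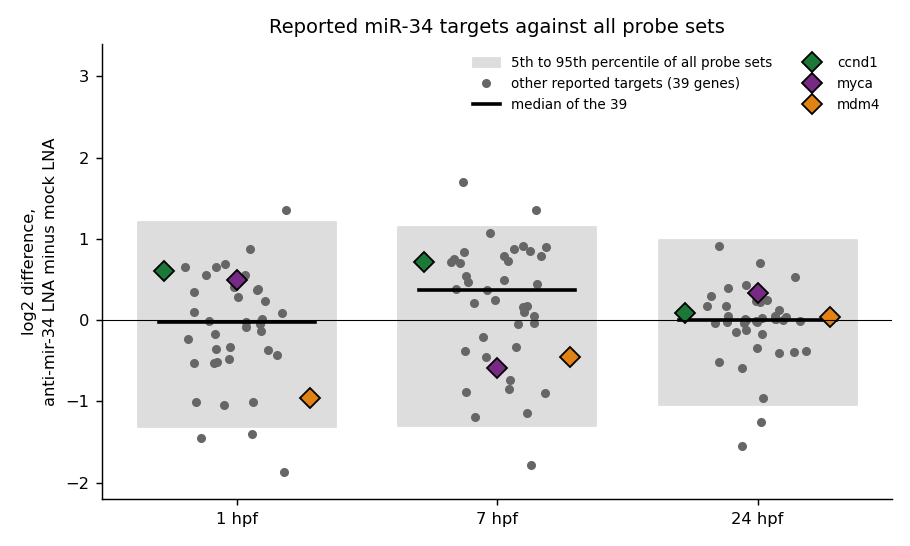
Log2 difference between anti-mir-34 LNA and mock LNA embryos (y axis) for 39 other reported miR-34 targets (grey points, black line at their median) and for ccnd1, myca and mdm4 (diamonds) at 1, 7 and 24 hpf (x axis); the grey band runs from the 5th to the 95th percentile of all 15502 probe sets. The 3 diamonds lie within the band at each age.

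With age the same 39 targets moved in both directions. Between 1 and 7 hpf in mock LNA embryos 8 rose and 3 fell, where 28.1% of named genes passed (14.3% up, 13.8% down). The neural factor gene sox2 rose by 3.58 (1.53 with 16 added), while 1 of its other probe sets differed by -0.61. The Notch ligand gene dla rose by 2.79 (1.01 with 16 added). The signalling gene wnt1 fell by 2.02 (-0.45 with 16 added). From 7 to 24 hpf 12 rose and 9 fell, where 48.9% passed (20.5% up, 28.4% down). The pluripotency gene nanog fell by 6.65 (-4.47 with 16 added), and the replication licensing inhibitor gmnn fell by 2.81. The gene dla rose by 3.25 more and the Notch ligand gene jag1a by 3.10 (1.52 with 16 added).

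Around cyclin D1, 17 of 36 listed genes of the cyclin, CDK and Rb axis were named on the array, and none passed for the LNA at any age. Other D cyclins, cdk4 and cdk6 were not analysed here. The medians of the LNA differences were -0.08, 0.14 and -0.01 at 1, 7 and 24 hpf. At 1 hpf the smallest p belonged to tfdp1a (-0.44, adjusted p = 0.502) and at 24 hpf to rb1 (1.03, adjusted p = 0.999). At 7 hpf it was that of e2f5 (-1.79, adjusted p = 0.179), whose second probe set differed by -0.16. Leaving out single arrays put the adjusted p of the first e2f5 probe set between 0.0214 (-2.35, without mock replicate 3) and 0.927. Both e2f3 and e2f5 also count among the 39 other reported targets. While ccnd1 rose between 1 and 7 hpf in mock LNA embryos, 4 of the 17 rose and 1 fell; over the array 14.3% of named genes rose and 13.8% fell at this step. The CDK inhibitor gene cdkn1ca rose by 2.91 (1.94 with 16 added), and the E2F gene e2f3 by 1.78. The gene e2f5 fell by 1.67, but its second probe set differed by -0.89 and did not pass. Without mock replicate 3 of 7 hpf the value was -1.11 (adjusted p = 0.162), and the call was also lost without replicate 1 or 2 of 1 hpf (-1.64 and -1.60). From 7 to 24 hpf 3 rose and 7 fell, where 20.5% of named genes rose and 28.4% fell. The S phase cyclin gene ccne1 fell by 4.15 and rb1, the retinoblastoma gene, by 1.68, while the E2F partner gene tfdp2 rose by 1.94.

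Around Myc, none of 15 genes of the Myc, Max and Mxd network (25 listed) and none of 22 conserved Myc target genes (29 listed) passed for the LNA. The network's median LNA differences were 0.02, 0.11 and 0.01 at 1, 7 and 24 hpf, and those of the target genes 0.03, 0.05 and 0.11. At 1 hpf max, the obligate partner of Myc, differed by -0.83 (adjusted p = 0.309). Leaving out single arrays put it between -1.20 (adjusted p = 0.0398, without anti-mir-34 replicate 2) and -0.25 (adjusted p up to 0.984). Without anti-mir-34 replicate 2 of 1 hpf, 468 probe sets passed, against 191 in the full fit. At 24 hpf the Myc antagonist mxi1 differed by -1.45 (adjusted p = 0.999). The snoRNP gene nop58 had the smallest p of the target genes at 1 and 24 hpf, at 0.48 (adjusted p = 0.242) and 0.56 (adjusted p = 0.770); its second probe set gave -0.0011 at 24 hpf. At 7 hpf it was nme2b.1, a nucleoside diphosphate kinase gene (-0.76, adjusted p = 0.216). Leaving out single arrays put its adjusted p between 0.0429 (-0.98, without mock replicate 3) and 0.994.

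Between 1 and 7 hpf in mock LNA embryos, when myca was lowest, 8 of the 22 Myc target genes rose and none fell, where 14.3% of named genes rose and 13.8% fell, with a median of 0.50 beside -0.22 over all named genes. The pseudouridine synthase gene dkc1 rose by 1.25, the nucleolar methyltransferase gene fbl by 0.88 and the purine synthesis gene gart by 0.89. The call of gart, with an adjusted p of 0.0494, was lost without any of the 6 arrays but mock replicate 3 of 7 hpf, with values between 0.65 and 1.01. Only 3 of 13 alternatives, array omissions included, kept the call of gart. From 7 to 24 hpf, when myca rose, 5 rose and 8 fell, beside the 20.5% and 28.4% of named genes, with a median of -0.34 beside -0.20. Fallers included npm1a (-1.56, and -0.64, not past the threshold, in its second probe set), dkc1 (-1.36) and nop58 (-1.35), all of the nucleolus. Risers included nme2b.2 (6.21, or 4.37 with 16 added) and the lactate dehydrogenase gene ldha (2.51, or 1.34). In the network 2 of 15 rose (mych and mycn) and 6 fell to 7 hpf, beside 14.3% and 13.8% of named genes. Those 6 include mycb, mycla and myclb, so the network counts repeat Myc genes described above. The genes mycn and ldha also count among the 39 other reported targets. The mitotic kinase gene aurka fell by 2.03, and mycbp, named for its binding to Myc, fell by 2.40 (-1.26 with 16 added). To 24 hpf 5 rose and 4 fell, beside 20.5% and 28.4%, and the Myc antagonist mxd4 rose by 3.67 (1.60 with 16 added).

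Around Mdm4, 36 of 46 listed genes of the Mdm and p53 axis were named on the array, and 1 passed for the LNA, where 1.07% of named genes were called lower at 1 hpf. The checkpoint kinase gene chek1 was lower at 1 hpf, at 6.25 ± 1.01 with anti-mir-34 LNA against 7.91 ± 0.37 with mock LNA (difference -1.66 ± 0.35, adjusted p = 0.0191). That call was lost without mock replicate 1 or 3 of 1 hpf (adjusted p = 0.103 and 0.0640) or anti-mir-34 replicate 1 or 3 (0.110 and 0.0929). It was also lost without the intensity trend (0.0878) and in a fit of the 2 groups alone (0.357). The p53 gene itself and cdkn1a were not analysed here. The list's median LNA differences were 0.16, 0.15 and -0.02 at 1, 7 and 24 hpf. At 7 hpf the stress-response factor gene foxo3b differed by 1.91 (adjusted p = 0.180), and its second probe set by 0.85. Leaving out single arrays put the adjusted p of the first foxo3b probe set between 0.0162 (2.6, without mock replicate 3) and 0.861. At 24 hpf gadd45bb differed by 1.80 (adjusted p = 0.999), or by 0.36 with 16 added.

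With age, 9 of these 36 genes rose and 5 fell from 1 to 7 hpf in mock LNA embryos, and 2 rose and 12 fell from 7 to 24 hpf, while mdm4 passed neither step. Of all named genes 14.3% rose and 13.8% fell at the first step, and 20.5% rose and 28.4% fell at the second. The stress gene sesn3 rose by 5.66 to 7 hpf (3.91 with 16 added). The growth arrest genes gadd45aa and gadd45bb rose by 5.68 and 4.17 and fell by 5.61 and 5.12 to 24 hpf; with 16 added they rose by 1.78 and 2.15 and fell by 1.80 and 2.30. The checkpoint kinase genes chek2 and chek1 fell by 2.74 and 2.45 to 7 hpf. To 24 hpf usp2a, which codes for a ubiquitin protease, rose by 5.22 (2.66 with 16 added), and casp8, the initiator caspase gene, fell by 3.78 (-1.05 with 16 added).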

How the data were processed

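Per the labels' protocols, Trizol RNA of whole embryos was labelled with biotin from 6 ug of total RNA and hybridized to Affymetrix arrays. The deposited values are log2 signals of 15617 probe sets on 18 arrays. The submitters' processing notes name GCOS, without a version; the scale was read from the lowest value, -3.32, the log2 of a signal of 0.1. Controls (115 probe sets) were left out, and 131 missing values in 115 probe sets were kept missing.

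Names came from the platform annotation: 10795 probe sets had 1 symbol, 135 several and 4572 none. Entrez numbers matched 10711 of them to NCBI's RefSeq table of GRCz12tu, from which 1 symbol was updated. No coordinates or sequences were used.

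A model with 1 mean per group was fitted to all 18 arrays with limma 3.58.1 in R 4.3.3, with 12 residual degrees of freedom; eBayes moderated the variances along an intensity trend. Two-sided p-values were Benjamini-Hochberg adjusted over 15502 probe sets in each comparison, at a threshold of 0.05. The fit was tried on simulated data for the LNA comparison of 1 hpf only. Its errors were independent, with the same spread in every group for a probe set. Unequal spreads and likeness between arrays were not simulated. A gene with several probe sets was represented by that with the highest mean. Named from each list were genes past the threshold (at most 4 per LNA comparison, 3 per direction of an age step) or, for the LNA, the smallest p where none passed. Steps from 1 to 24 hpf were added later from the same fit. Members, lists and tests were chosen with earlier results of these data known. Same-numbered arrays were not taken as pairs in this fit. Within ages their deviations correlated between 0.01 and 0.28, and at 7 hpf by 0.06, 0.28 and 0.25 for replicates 1, 2 and 3. At 1 hpf the values were 0.03, 0.08 and 0.13 in the same order. The tests within an age, those of 7 hpf most, therefore leave a likeness of same-numbered arrays out of the model. A fit with the replicate number as a block is given below.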

Additional observations from a re-analysis of the deposited data

How the results depend on the processing

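Each comparison was repeated with 16 added to the signals, quantile normalization, probe sets below a mean of 3 left out, no intensity trend, the 2 groups alone, the replicate number as a block, other probe sets, and each array left out. Omitting mock replicates 2 of 7 and 24 hpf together was chosen after seeing the data. Quantile normalization was a weak check, since the deposited arrays may already share a distribution. It moved the median difference of a comparison most from -0.214 to -0.222 (anti-mir-34 LNA embryos, 24 minus 1 hpf). Its values are among those counted next and add little. For ccnd1, myca and mdm4, 545 values kept direction and call, 28 changed sign and 4 lost a call, and no LNA effect gained one. Levels near 0 limit ccnd1 at 1 hpf and myca at 7 hpf.

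The sign turned for ccnd1 at 1 hpf with the other probe set (-0.0226). The ccnd1 difference of effects between 24 and 1 hpf became 0.0323 with 16 added and 0.16 with the other probe set, and that of myca 0.0777 with 16 added. The mock fall of myca to 7 hpf was not called with 16 added (-0.31) or in the 2 groups alone (-1.51). Leaving out single arrays, it ranged from -1.78 to -1.0.

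Over the same omissions the ccnd1 LNA difference at 1 hpf ranged from -0.34 (without mock replicate 2) to 1.20. The ccnd1 mock step from 7 to 24 hpf ranged from -0.27 to 0.51. That step was -0.34 without mock replicates 2 of 7 and 24 hpf together. The ccnd1 differences of effects ranged from -0.48 to 1.06 between 7 and 1 hpf, and from -1.11 to 0.42 between 24 and 1 hpf. For myca the mean LNA difference ranged from -0.0883 to 0.21, and the difference of effects between 24 and 1 hpf from -0.33 to 0.0511. For mdm4 the LNA difference at 24 hpf ranged from -0.12 to 0.23, the mock step from 1 to 7 hpf from -0.12 to 0.25, and the anti-mir-34 LNA step from 7 to 24 hpf from -0.19 to 0.11. None of these was called. Of the other Myc genes, mych ranged from -0.43 to 0.10 at 1 hpf and -0.13 to 0.20 at 24 hpf, mycn from -0.63 to 0.0288 at 24 hpf, and at 1 hpf mycla from -0.16 to 0.27 and myclb from -0.0214 to 0.37. Other probe sets gave mycn 1.43 at 1 hpf and 0.24 at 24 hpf, sox2 -0.61 in the mock step to 7 hpf, and nop58 -0.0011 at 24 hpf.

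The replicate block gave 391, 219 and 5 called probe sets for the LNA at 1, 7 and 24 hpf, against 191, 2 and 2 without it, and 27 against 1 in the mean; at 7 hpf, not at 1 or 24 hpf, every array correlated best with its own number. It changed no call of ccnd1, myca or mdm4. Among the other named genes it called snai1a at 1 hpf (adjusted p = 0.0363) and nme2b.1 at 7 hpf (0.0328) and lost gart (0.0669). The counts at 1, 7 and 24 hpf were 58, 0 and 0 without the intensity trend and 0, 0 and 0 in the 2 groups alone, 22 at 7 hpf with 16 added, and 0 in the mean without the trend. Leaving out single arrays, they ranged from 89 to 468, 0 to 403 and 0 to 13, and from 0 to 31 in the mean. For the difference of effects between 7 and 1 hpf the count was 42, against 81 with 16 added, 73 without dim probe sets, 5 without the trend and 1 to 211 without single arrays. Between 24 and 7 hpf it was 0, against 1 without dim probe sets and up to 10 without single arrays. Between 24 and 1 hpf it was 0, against 1 with quantile normalization, 4 without dim probe sets, 1 without the trend and up to 126 without single arrays. The causes were not tested.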
